A study of Homo sapiens with 6 samples.

Results

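KLF2, KLF3, KLF4, KLF5, KLF6, KLF9, KLF10, KLF11, KLF13 and KLF15 are members of the Krüppel-like family of zinc finger transcription factors. They were taken from a gene-level RNA-seq count table by matching its Ensembl identifiers to these symbols, which gave 10 genes among 59565 loci. All 10 passed the filter on low counts. The table covers 6 libraries of C4-2, a castration-resistant subline of the human prostate cancer line LNCaP. The labels call 3 of them C4-2 Enz-R, the line resistant to enzalutamide, a drug that blocks the androgen receptor, and the other 3 C4-2 parental. No clone number, drug dose or drug exposure at harvest is given for Enz-R, and no separate cultures are named for either line. P-values therefore measure the spread among these libraries, which may be technical, and 1 resistant line stands for resistance.

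KLF proteins bind GC-rich elements and CACCC boxes through a run of C-terminal C2H2 zinc fingers that differs little within the family, while their N-terminal parts differ and decide which cofactors are recruited. KLF3 recruits the CtBP corepressors, KLF9, KLF10, KLF11 and KLF13 recruit the SIN3A corepressor, and KLF2, KLF4, KLF5, KLF6 and KLF15 can activate transcription. In epithelia KLF4 is known for cell cycle exit and differentiation and KLF5 for proliferation, and KLF6 was first described in prostate cancer as a candidate tumour suppressor. KLF9 and KLF15 are known to be induced by glucocorticoids, and KLF10 and KLF11 by TGF-beta.

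Levels are given in CPM, the count of a gene divided by its TMM-scaled library total in units of 1e+06 counts. Library totals were 15673404 to 23351394 counts in Enz-R and 19400321 to 28247038 in parental. The share of counts from mitochondrially encoded genes was 14.9% ± 0.516 in Enz-R and 10.2% ± 1.27 in parental (SD, n = 3 each). With those genes left out before scaling, 3 KLF genes were called higher and 6 lower, the same counts as with them in. Transcripts that mark other cell types were at low levels. PECAM1 and CDH5 of endothelium had 4 and 3 counts over the Enz-R libraries and 2 and 1 over the parental ones, and PTPRC of leukocytes had 6 in Enz-R and 2 in parental. VWF, also an endothelial marker, had 36 counts in Enz-R and 355 in parental, and the summed level of the 5 endothelial markers was 4.71 to 6.02 CPM in Enz-R and 9.65 to 11.96 CPM in parental. Their part in the KLF2 and KLF4 results was not tested. The luminal prostate markers KLK3, KLK2, FOLH1, HOXB13, KRT8 and KRT18 were all present, with summed levels of 4418 to 4618 CPM in the Enz-R libraries and 6892 to 7427 CPM in the parental ones. KLK3 made up most of that sum, with 2533 ± 63.9 CPM in Enz-R and 4768 ± 249 in parental. KLK3, KLK2, FOLH1 and HOXB13 were called lower in Enz-R, while KRT8 (log2 fold change 0.40) and KRT18 (0.70) were called higher. In such bulk RNA, fewer cells with a transcript and less transcript per cell cannot be told apart.

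Of the 10 KLF genes, 3 were higher in Enz-R (KLF6, KLF5 and KLF2), 6 were lower (KLF4, KLF13, KLF9, KLF11, KLF15 and KLF3) and KLF10 was not called. Calls rest on the quasi-likelihood test of edgeR, with p-values adjusted over 19029 genes (Benjamini-Hochberg) and a threshold of 0.05. Calls were common in this comparison. Of all tested genes 64.8% were called, 32.4% higher and 32.3% lower. The libraries of the lines did not overlap for 9 of the 10 KLF genes, nor for 68.9% of all tested genes. A called difference of at least 2-fold was found for 4 of the 10, against 19.7% of tested genes. KLF4 and KLF13 were that much lower, as were 8.66% of tested genes, and KLF6 and KLF5 were that much higher, as were 11.0%. The median log2 fold change was -0.33 over the KLF genes and 0.01 over all tested genes. The median size of the change, with its sign ignored, was 0.69 over the KLF genes and 0.46 over all tested genes.

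**Figure D1:**
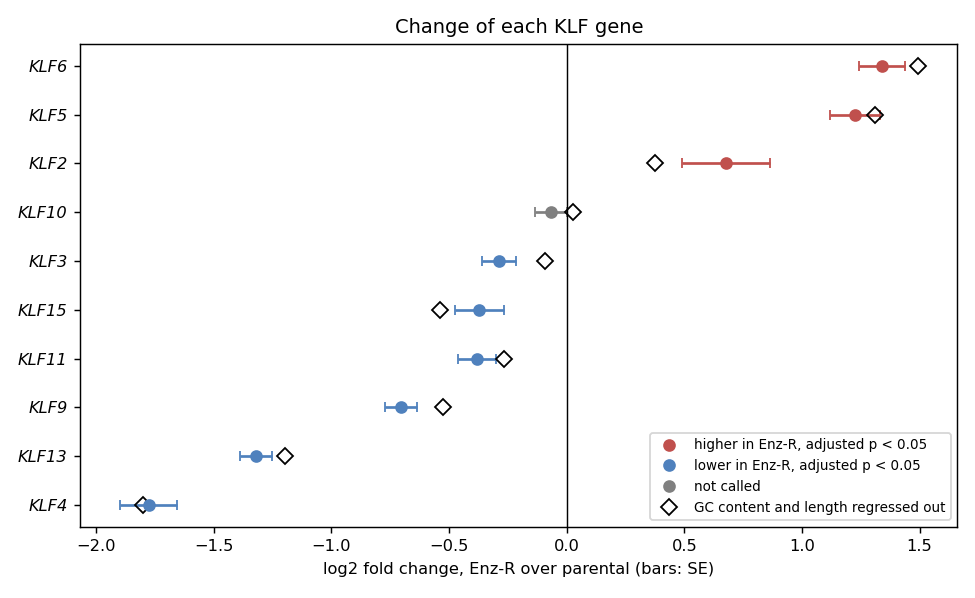
Log2 fold change of Enz-R over parental for each of the 10 KLF genes, from edgeR, with bars of 1 SE derived from the test's F statistic (3 libraries per line). Open diamonds are the values after GC content and transcript length were regressed out; KLF2 and KLF3 lose their calls there and KLF10 turns in sign, while KLF6, KLF5, KLF4 and KLF13 stay more than 1 log2 unit from 0.

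KLF6 showed the largest rise of the 10 genes. It lies on chromosome 10 from 3775996 to 3785281 (GRCh38, minus strand, ENSG00000067082). Libraries 1 to 3 of Enz-R had 38.1, 48.2 and 46.3 CPM of KLF6, against 19.1, 15.6 and 17.3 CPM in libraries 1 to 3 of parental, so the lowest Enz-R library stood well above the highest parental one. The log2 fold change was 1.34 ± 0.10 (SE), or 2.53-fold (adjusted p = 1.54e-08). Over 17 alternative settings it ran from 1.25 to 1.49. KLF6 ranked higher among all tested genes for its level per kilobase of exon in Enz-R, at the percentile of 67.4, than in parental, at 44.4.

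KLF5, on chromosome 13 from 73054976 to 73077542 (plus strand, ENSG00000102554), had 16.4, 16.6 and 15.4 CPM in Enz-R, against 6.93, 6.86 and 6.93 CPM in parental. The coefficient of variation was 4.01% in Enz-R and 0.572% in parental, and the lines were far apart. The parental libraries held 199, 137 and 142 counts of KLF5. A spread as small as theirs lies below counting error and does not measure precision. The log2 fold change of KLF5 was 1.23 ± 0.10, or 2.34-fold (adjusted p = 8.04e-08). It ran from 1.13 to 1.31 over the 17 settings.

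KLF2, which holds endothelial cells and T cells in a quiescent state, was the member with the fewest counts, 231 over the Enz-R libraries and 185 over the parental ones. It lies on chromosome 19 from 16324817 to 16327874 (plus strand, ENSG00000127528). KLF2 had 4.57, 4.41 and 3.62 CPM in Enz-R, against 3.13, 2.60 and 2.10 CPM in parental, and the lines did not overlap. Its log2 fold change was 0.68 ± 0.19 (adjusted p = 0.00520). This call was lost when pseudogene counts were added and when GC content was regressed out. KLF2 has 4 processed pseudogenes on chromosome 2, which took 37 counts over the Enz-R libraries and 105 over the parental ones. KLF2P4 alone took 12 in Enz-R and 84 in parental. With these counts added to KLF2, the levels were 5.30, 4.88 and 4.47 CPM in Enz-R, against 4.70, 4.26 and 3.42 CPM in parental, the lines overlapped, and the log2 fold change was 0.24 (adjusted p = 0.207). KLF2 transcripts have a GC content of 65.2%, the highest of the 10 genes, and with GC content and length regressed out the log2 fold change was 0.38 (adjusted p = 0.0921). How reads were divided between KLF2 and its pseudogenes is not given in the sources used here.

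KLF4, a differentiation factor also used to reprogram somatic cells, fell the most of the 10. It lies on chromosome 9 from 107484852 to 107490482 (minus strand, ENSG00000136826). KLF4 had 6.12, 8.77 and 7.90 CPM in Enz-R, against 28.0, 24.5 and 24.7 CPM in parental, and every Enz-R library was far below every parental one. KLF4 changed by -1.78 ± 0.12 on the log2 scale, or 3.43-fold lower (adjusted p = 7.02e-09). Only 3.17% of tested genes had a more negative value. KLF4P1, a processed pseudogene, took 8 counts in Enz-R and 11 in parental, and adding them gave a log2 fold change of -1.76 for KLF4.

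KLF13, which binds SIN3A and is known for activating the chemokine gene CCL5 in T cells, had the smallest adjusted p of the 10. It lies on chromosome 15 from 31326855 to 31435665 (plus strand, ENSG00000169926). KLF13 had 41.4, 45.2 and 39.2 CPM in Enz-R, against 101, 105 and 109 CPM in parental. The lines were far apart, with a log2 fold change of -1.32 ± 0.07, or 2.50-fold lower (adjusted p = 3.25e-10). Over the 17 settings the value for KLF13 ran from -1.42 to -1.20. CCL5 itself had 22 counts in Enz-R and 25 in parental and was below the count filter.

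**Figure D2:**
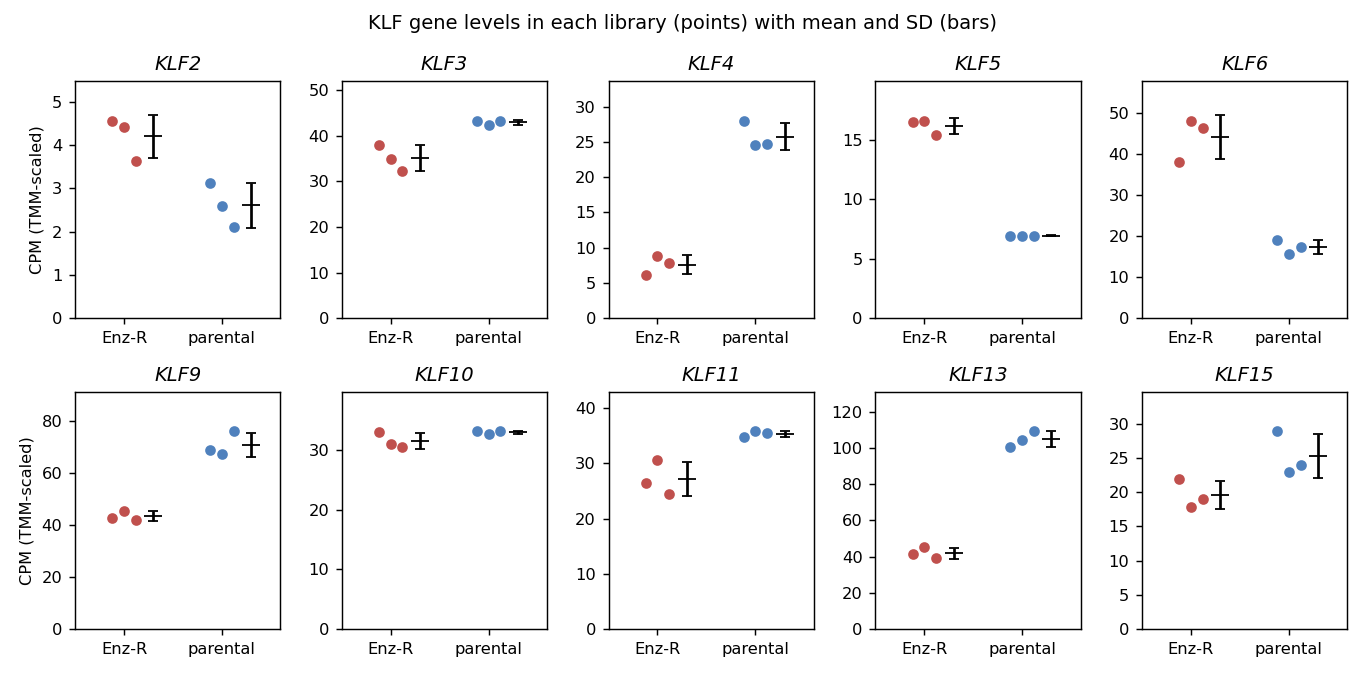
Level of each KLF gene in every library, in CPM with TMM-scaled library totals, Enz-R in red and parental in blue, with the mean and SD beside the points (n = 3 per line). All axes start at 0. KLF4 stood at 6.12 to 8.77 CPM in Enz-R and 24.5 to 28.0 CPM in parental, and KLF10 is the gene whose libraries overlap between the lines.

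The 250 bases before the transcription start are printed for KLF4 and KLF13, the members that fell most, for KLF2, whose call was lost in some settings, and for KLF9, whose window differs in base composition. They are taken from RefSeq on GRCh38.p14 and given 5′ to 3′ on the strand of the gene. The windows are chr19:16324576-16324825 (plus strand) for KLF2, chr9:107489770-107490019 (minus strand, between exons of a longer GENCODE transcript) for KLF4, chr15:31326585-31326834 (plus strand) for KLF13 and chr9:70414658-70414907 (minus strand) for KLF9. Capitals mark GC boxes (GGGCGG, either strand) and CACCC boxes (CACCC, either strand), the elements that KLF and SP proteins bind, and in KLF2 also a match to the MEF2 consensus.
KLF2: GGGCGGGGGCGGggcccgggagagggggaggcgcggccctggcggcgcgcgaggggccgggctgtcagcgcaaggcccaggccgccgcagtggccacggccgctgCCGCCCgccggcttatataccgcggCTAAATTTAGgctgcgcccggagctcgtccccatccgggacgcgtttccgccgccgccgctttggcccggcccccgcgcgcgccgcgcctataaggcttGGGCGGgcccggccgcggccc
KLF4: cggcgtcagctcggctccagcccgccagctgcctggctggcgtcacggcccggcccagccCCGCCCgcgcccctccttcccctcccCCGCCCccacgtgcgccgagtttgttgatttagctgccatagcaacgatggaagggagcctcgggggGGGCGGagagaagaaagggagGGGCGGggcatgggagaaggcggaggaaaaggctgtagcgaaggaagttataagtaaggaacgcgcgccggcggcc
KLF13: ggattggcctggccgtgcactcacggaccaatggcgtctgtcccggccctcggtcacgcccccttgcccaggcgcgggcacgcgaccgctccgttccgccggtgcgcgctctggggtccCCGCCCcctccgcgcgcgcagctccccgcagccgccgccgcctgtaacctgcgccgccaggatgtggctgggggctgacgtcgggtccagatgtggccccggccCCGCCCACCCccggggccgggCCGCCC
KLF9: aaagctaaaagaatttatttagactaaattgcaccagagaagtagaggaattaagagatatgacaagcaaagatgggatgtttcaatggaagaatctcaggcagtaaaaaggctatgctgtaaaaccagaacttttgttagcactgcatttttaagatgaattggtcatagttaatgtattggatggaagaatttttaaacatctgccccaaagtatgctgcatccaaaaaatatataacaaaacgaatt

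The first 3 windows were rich in G and C, with 80.0% in KLF2, 69.2% in KLF4 and 78.8% in KLF13, against a median of 58.0% over 35116 windows of the same length. GC boxes were found 4 times in KLF2, 4 times in KLF4 and 3 times in KLF13. At least 1 GC box was present in 42.6% of all windows and at least 4 in 7.63%. The single CACCC box among the printed windows was in KLF13, where it overlaps a GC box, while 54.7% of all windows hold one. The MEF2 match in KLF2, CTAAATTTAG, spans bases -120 to -111 before the start, and 0.515% of all windows hold a match to that consensus. In endothelial cells MEF2 factors are known to switch on KLF2 and KLF4. Windows were used for 8 of the 10 genes (10 windows, since KLF5 and KLF11 have a pair of starts each). The window of KLF9 had the lowest GC content of the 10, at 32.4%, with no GC box and no CACCC box. The window of KLF6, which rose, held 2 GC boxes and 72.4% G and C. Such matches describe letters only, and genes that rose and genes that fell both held GC boxes.

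KLF9 and KLF15, the steroid-induced members, were both lower. KLF9, a small SIN3A-binding protein encoded on chromosome 9 from 70384597 to 70414624, had 42.9, 45.5 and 42.0 CPM in Enz-R, against 69.0, 67.3 and 76.2 CPM in parental. No library of one line reached the range of the other. KLF15, which drives amino acid breakdown and glucose supply in liver and muscle and lies on chromosome 3 from 126342635 to 126357442, had 21.9, 17.9 and 19.0 CPM in Enz-R, against 28.9, 23.0 and 24.1 CPM in parental. The gap was narrow, since the highest Enz-R library stood close to the lowest parental one. The log2 fold change was -0.37 ± 0.10 for KLF15 (adjusted p = 0.00520), and it ran from -0.54 to -0.27 over the 17 settings with the call kept in each. For KLF9 the same settings gave -0.80 to -0.53.

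Among the TGF-beta-induced members, KLF11 was lower and KLF10 was not called. KLF11, on chromosome 2 from 10042849 to 10054836, had 26.4, 30.5 and 24.5 CPM in Enz-R, against 34.8, 35.8 and 35.4 CPM in parental. KLF11 changed by -0.38 ± 0.08 on the log2 scale (adjusted p = 7.19e-04). KLF10, on chromosome 8 from 102648779 to 102655902, had 33.0, 31.0 and 30.5 CPM in Enz-R, against 33.2, 32.8 and 33.2 CPM in parental. Its libraries overlapped between the lines, and its log2 fold change was -0.07 ± 0.07 (95% interval from the SE -0.20 to 0.07, adjusted p = 0.402). With GC content and length regressed out the sign turned, at 0.03 (adjusted p = 0.738).

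KLF3, the CtBP-dependent repressor, showed the smallest called change of the 10. It lies on chromosome 4 from 38664196 to 38701042 and overlaps KLF3-AS1 on the other strand, which had 71 counts in Enz-R and 60 in parental. KLF3 had 37.9, 34.9 and 32.2 CPM in Enz-R, against 43.3, 42.3 and 43.1 CPM in parental, with no overlap. Its log2 fold change was -0.29 ± 0.07 (adjusted p = 0.00229). KLF3 transcripts have the lowest GC content of the 10, at 41.5%. With GC content and length regressed out the value was -0.09 and the call was lost (adjusted p = 0.240).

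The order of the genes by level differed between the lines. Per kilobase of exon, the order in Enz-R was KLF9 (8.40 ± 0.347 CPM per kilobase), KLF10 (7.88 ± 0.330), KLF6 (7.19 ± 0.877), KLF15 (6.88 ± 0.735), KLF11 (5.91 ± 0.677), KLF3 (5.56 ± 0.452), KLF13 (4.46 ± 0.321), KLF5 (4.15 ± 0.166), KLF2 (2.08 ± 0.251) and KLF4 (2.08 ± 0.368). Neighbours from KLF9 down to KLF3 overlapped, as did KLF13 with KLF5 and KLF2 with KLF4. KLF3 was separate from KLF13, and KLF5 from KLF2. In parental the order was KLF9 (13.7 ± 0.914), KLF13 (11.1 ± 0.461), KLF15 (8.89 ± 1.11), KLF10 (8.26 ± 0.0648), KLF11 (7.70 ± 0.113), KLF4 (7.04 ± 0.539), KLF3 (6.81 ± 0.0854), KLF6 (2.82 ± 0.283), KLF5 (1.77 ± 0.0101) and KLF2 (1.29 ± 0.257). Of these neighbours, KLF15 overlapped KLF10, KLF11 overlapped KLF4 and KLF4 overlapped KLF3, and the others were separate. KLF6 thus ranked 3 in Enz-R and 8 in parental, and KLF4 ranked 10 in Enz-R and 6 in parental. These ranks depend on the length used. With the longest transcript as the length, KLF6 ranked 1 in Enz-R and 8 in parental, KLF4 ranked 9 in Enz-R and 4 in parental, and 4 genes in Enz-R and 5 in parental kept their rank.

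**Figure D3:**
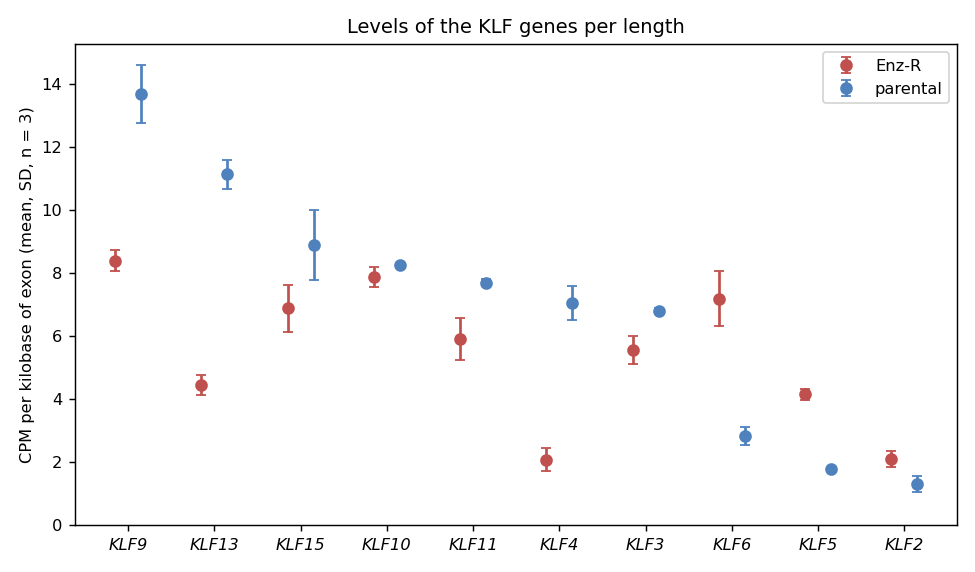
Level of each KLF gene in CPM per kilobase of exon, mean with SD over 3 libraries, Enz-R in red left of parental in blue, ordered by the parental level. Above about 7 CPM per kilobase stand 3 genes in Enz-R (KLF9, KLF10 and KLF6), while KLF4 drops to 2.08 in Enz-R, against 7.04 in parental.

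The summed level of the 10 genes was lower in Enz-R, and its make-up differed. Per kilobase the sum was 54.8, 56.5 and 52.5 in Enz-R, against 71.0, 67.2 and 70.0 in parental. KLF6 supplied 13.2% ± 1.64 of it in Enz-R and 4.06% ± 0.296 in parental, and KLF5 7.60% ± 0.0992 in Enz-R and 2.56% ± 0.0605 in parental. KLF13 supplied 8.16% ± 0.298 in Enz-R and 16.1% ± 0.871 in parental, and KLF4 3.80% ± 0.651 in Enz-R and 10.1% ± 0.588 in parental. KLF5 and KLF4, which are known to oppose each other in gut epithelium, changed places. The ratio of KLF5 to KLF4 per kilobase was 2.53, 1.78 and 1.83 in Enz-R, against 0.232, 0.263 and 0.264 in parental. These sums and shares are descriptions of genes chosen with results known and carry no test.

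Tested genes within 1 Mb of each KLF gene, its neighbours, were set beside it. For scale, 32.3% of all tested genes were called lower and 32.4% higher. KLF6 had 3 neighbours, 0 of them called higher and 1 lower, with a median log2 fold change of 0.07. KLF5 had 4 neighbours, 1 called higher and 1 lower, with a median of -0.01. KLF4 had 2, both called lower, with a median of -0.72, less negative than KLF4 itself. KLF9 had 5, of which 3 were called lower and 1 higher, with a median of -0.63, close to its own value of -0.70. KLF13 had 16, with 6 lower, 2 higher and a median of -0.36. KLF3 had 17, with 12 lower and 3 higher, and a median of -0.53, more negative than the -0.29 of KLF3. KLF2 had 54, with 8 lower, 19 higher and a median of 0.14. KLF10 had 15 (6 lower, 4 higher, median -0.25), KLF11 27 (12 lower, 6 higher, median 0.05) and KLF15 18 (5 lower, 4 higher, median -0.06). DNA copy number was not analysed here.

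The rest of the KLF and SP family holds 17 genes, of which 11 passed the count filter. Of these, 7 fell, SP6 rose and KLF16, SP2 and SP9 were not called, with a median log2 fold change of -0.72. Over all tested genes 32.3% were called lower and 32.4% higher. KLF7, a close relative of KLF6 known from neuron development, had 18.8, 19.2 and 16.3 CPM in Enz-R, against 59.7, 56.6 and 53.0 CPM in parental (log2 fold change -1.64 ± 0.08, adjusted p = 1.55e-10). SP6, known from tooth and skin development, had 34.9, 41.2 and 41.5 CPM in Enz-R, against 14.6, 12.8 and 13.8 CPM in parental (1.51 ± 0.09, adjusted p = 1.52e-09). The broadly expressed SP1 (-0.72 ± 0.06), SP4 (-0.81 ± 0.10) and SP3 (-0.34 ± 0.06) fell, and the fall of SP3 was not called with GC content and length regressed out (adjusted p = 0.166). At low counts the erythroid factor KLF1 had 13 counts in Enz-R and 98 in parental (-2.54 ± 0.47), SP8 had 26 in Enz-R and 146 in parental (-2.13 ± 0.29), and SP5 had 32 in Enz-R and 80 in parental (-0.96 ± 0.30). The SP5 call was lost without Enz-R replicate 1 (adjusted p = 0.0508) and with DESeq2 (adjusted p = 0.0938). KLF16 had a log2 fold change of 0.07 ± 0.08 and SP2 of -0.06 ± 0.08. SP9 had one of -0.49 ± 0.37. Below the filter, KLF8 had 1 count in Enz-R and 24 in parental, KLF12 25 in Enz-R and 23 in parental, KLF14 11 in Enz-R and 17 in parental, and SP7 20 in Enz-R and 14 in parental, while KLF17 and KLF18 had at most 1.

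Cofactors that KLF proteins bind were more often lower than higher. Of 9 tested, 6 fell, CTBP1 rose and 2 were not called, with a median of -0.42. Calls were made for 64.8% of all tested genes, 32.3% lower and 32.4% higher. The partners of KLF3 went opposite ways, with CTBP1 at 202 ± 10.9 CPM in Enz-R and 158 ± 4.91 in parental (0.35 ± 0.06), and CTBP2 at 81.9 ± 3.96 CPM in Enz-R and 141 ± 2.93 in parental (-0.78 ± 0.06). The acetyltransferase coactivators EP300 (-0.70 ± 0.07) and CREBBP (-0.71 ± 0.07) fell. The 7 ubiquitin ligases known to target KLF proteins had a median of -0.35. Of these, 5 fell and 0 rose, against 32.3% lower and 32.4% higher over all tested genes. With GC content and length regressed out 3 of the ligases fell. ITCH (-0.73 ± 0.07), SMURF1 (-0.63 ± 0.08) and VHL (-0.56 ± 0.06) showed the largest falls among the ligases.

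Genes of pathways known to induce KLF members were called about as often as all tested genes (64.8%), with 6 of 8 called in the MEK5-ERK5-MEF2 pathway and 5 of 8 among TGF-beta receptors and SMADs. In the MEK5-ERK5-MEF2 pathway, which induces KLF2 and KLF4 in endothelium, 4 of 8 fell and 2 rose, with a median of -0.13. Shares over all tested genes were 32.3% lower and 32.4% higher. MAP3K2, a kinase upstream of MEK5, fell by 0.57 ± 0.06 on the log2 scale, and MEF2D (-0.29 ± 0.07) and MEF2A (-0.27 ± 0.08) fell slightly, the call of MEF2A being lost with GC content and length regressed out (adjusted p = 0.583). MEF2C rose, from few counts, with 72 over the Enz-R libraries and 12 over the parental ones (2.90 ± 0.41). MEF2B had 57 counts in Enz-R and 40 in parental (0.85 ± 0.32, adjusted p = 0.0294), and its call was lost in 8 settings, without parental replicate 2 (adjusted p = 0.0886), parental replicate 3 (0.0939), Enz-R replicate 1 (0.160) or Enz-R replicate 3 (0.0577) among them. The 8 TGF-beta receptor and SMAD genes had a median of -0.22. Of them, 5 were called lower and 0 higher, against 32.3% lower and 32.4% higher over all tested genes. The inhibitory SMAD6 fell by 1.18 ± 0.08, and SMAD4 (-0.30 ± 0.07) and SKIL (-0.30 ± 0.08) fell, but with GC content and length regressed out only 1 of the 8 was called lower and 2 were called higher.

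Steroid receptor-induced genes were set beside KLF9 and KLF15. Of 11 tested, 6 fell, ZFP36 rose and 4 (SGK1, DUSP1, CEBPD and FOXO1) were not called, with a median of -0.20. The share called over all tested genes was 64.8%, with 32.3% lower and 32.4% higher. FKBP5, a co-chaperone of steroid receptors, had 32.3 ± 1.59 CPM in Enz-R and 157 ± 13.1 in parental, and the zinc finger gene ZBTB16 had 6.32 ± 0.553 CPM in Enz-R and 37.8 ± 0.625 in parental. Their log2 fold changes, -2.28 ± 0.08 and -2.59 ± 0.09, were larger in size than those of KLF9 and KLF15. ERRFI1, an inhibitor of ERBB receptors, fell by 0.56 ± 0.07. ZFP36, which destabilises mRNAs with AU-rich elements, rose by 1.19 ± 0.08.

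Immediate early genes, with which KLF2, KLF4, KLF6 and KLF10 can be induced by serum or stress, were more often higher than lower. Of 13 tested, 8 rose and 2 fell, with a median of 0.42. Among all tested genes 32.4% were called higher and 32.3% lower. EGR1 had 11.7, 21.4 and 17.7 CPM in Enz-R, against 4.35, 2.96 and 6.39 CPM in parental (1.88 ± 0.23). FOS had 52.9, 91.2 and 88.4 CPM in Enz-R, against 40.2, 21.3 and 32.5 CPM in parental (1.29 ± 0.20). FOSB had 6.58, 16.7 and 15.8 CPM in Enz-R, against 4.49, 4.01 and 3.95 CPM in parental (1.62 ± 0.26). Enz-R library 1 was the lowest Enz-R library for EGR1, FOS, FOSB, FOSL1, JUN, JUNB, IER2 and NR4A1, and also for KLF6 and KLF4. Among the other tested immediate early genes it was the highest for ATF3, MYC, EGR2 and SRF and lay in the middle for IER3. It was also the highest Enz-R library for KLF2 and KLF10. Without that library the log2 fold change was 1.44 for KLF6 and -1.63 for KLF4. NR4A1 (-0.27 ± 0.08) and SRF (-0.27 ± 0.06) fell. The part of immediate early gene induction in the KLF results was not tested.

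Genes reported in various tissues as targets of KLF proteins showed no common direction. Of 18, 12 were tested, of which 3 rose and 5 fell, with a median of -0.15. For comparison, 32.4% of all tested genes were called higher and 32.3% lower. MAOA, the monoamine oxidase gene known to be activated by KLF11 and KLF15, rose by 0.56 ± 0.06, with 357 ± 14.4 CPM in Enz-R and 243 ± 4.67 in parental, while KLF11 and KLF15 themselves fell. The glucose transporter gene SLC2A4 (0.70 ± 0.15) and BCAT2, a branched-chain amino acid aminotransferase gene known as a KLF15 target (0.33 ± 0.06), rose. The BCAT2 call was lost with GC content and length regressed out (adjusted p = 0.0982). The endothelial nitric oxide synthase gene NOS3 (-0.89 ± 0.17), the E-cadherin gene CDH1 (-0.45 ± 0.06) and the cyclin gene CCND1 (-0.34 ± 0.06) fell. S1PR1, a target of KLF2 in T cells, had 0 counts in all 6 libraries.

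**Figure D4:**
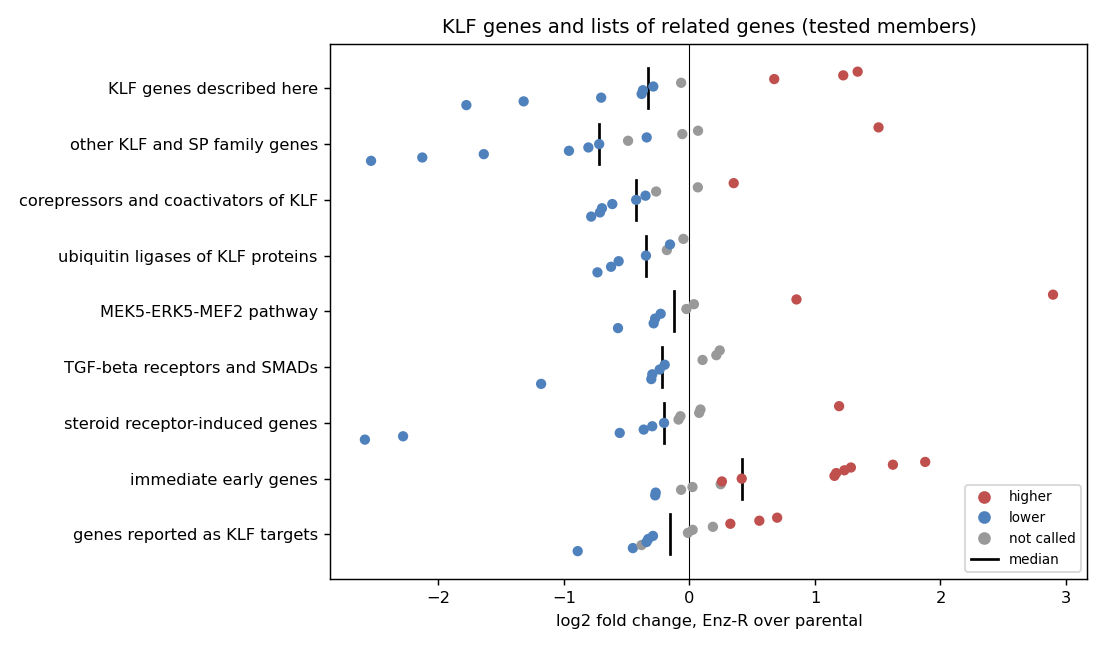
Log2 fold change of Enz-R over parental for each tested gene of the KLF group and of 8 lists of related genes, 1 point per gene, coloured by the edgeR call, with a line at the median of each list. The immediate early genes have a median of 0.42 and the other KLF and SP genes one of -0.72, against 0.01 over all tested genes.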

How the data were processed

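RNA-seq libraries were made by the submitters from purified mRNA with a NEBNext Ultra kit and sequenced as 150 bp read pairs, per the labels' protocols. Alignment used HISAT2 on GRCh38, per the submitters' processing notes. The deposited table holds raw counts per gene, made by the authors. No source used here names the counting tool, its annotation or a strand setting, so reads of overlapping or near-identical genes may be shared.

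Symbols came from a gene name list, and positions, exon lengths and GC content from GENCODE 29. Enz-R and parental libraries (3 each) entered 1 edgeR 4.0.16 fit (R 4.3.3) after filterByExpr and TMM scaling, with glmQLFit and glmQLFTest, no covariate, and Benjamini-Hochberg adjustment over 19029 genes. The SE is the fold change divided by the square root of F. CPM uses TMM-scaled totals. The fit was tested on simulated data. Libraries of 1 line differed by more than counting error (chi-square over its degrees of freedom 4.14 to 10.2). The KLF genes and the 8 lists were chosen with earlier results of these data known. All 10 KLF genes are named, all tested KLF and SP relatives, and up to 3 risers and 3 fallers per other list among called genes with non-overlapping lines and a mean of at least 1 CPM in the higher line. Genes named outside this rule were chosen after their values were seen. Other settings tried were a block for the replicate number, each library left out, DESeq2 size factors, library totals, no filter, at least 50 counts in 3 libraries, DESeq2 1.42.0, limma-voom (limma 3.58.1), GC content and length regressed out by splines (5 degrees of freedom, values known for 96.3% of genes) with and without the block, and mitochondrially encoded genes left out. Adding pseudogene counts to KLF2, KLF3 and KLF4 was chosen after the data were seen. Figures used matplotlib 3.10.9.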

Additional observations from a re-analysis of the deposited data

How the results depend on the processing

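KLF4, KLF5, KLF6, KLF9, KLF11, KLF13 and KLF15 kept their direction and their call under all 17 alternatives. Of these genes, only KLF4 has counts that adding pseudogene counts alters, so that alternative is no check on the others. KLF2 and KLF3 lost theirs with GC content and length regressed out, at 0.38 and -0.094, and at 0.38 (adjusted p = 0.0712) and -0.10 (adjusted p = 0.251) with the replicate block added. KLF2 also lost its call with pseudogene counts added (0.24). KLF10 turned to 0.027 in both GC settings (adjusted p = 0.738 and 0.769) and was called in none. KLF genes called higher numbered 2 in these 3 settings, and those called lower 5 in both GC settings. KLF16, not called, turned to -0.17 in both GC settings, to -0.029 with library totals only, and ran from -0.025 to 0.14 with 1 library left out. The replicate number as a block alone changed no call of a KLF gene, with 3 higher and 6 lower. The deviations of same-numbered libraries correlated at -0.01 to 0.05, and those of differently numbered ones at -0.05 to 0.05. Not every library correlated best with its own number. With 3 libraries per line these values cannot settle whether the numbers mark a pairing, and the labels state none. For the lists, 4 other KLF and SP genes were called lower with at least 50 counts in 3 libraries. Ubiquitin ligases called lower numbered 3 in both GC settings. MEK5-ERK5-MEF2 genes called higher numbered 1 in both GC settings, with no filter and with DESeq2, 0 with at least 50 counts in 3 libraries, and 1 to 2 with 1 library left out. TGF-beta receptor and SMAD genes called higher numbered 2 and called lower 1 in both GC settings, and 0 to 1 higher and 3 to 5 lower with 1 library left out. Steroid receptor-induced genes called higher numbered 1 to 2 with 1 library left out. By longest transcript, 4 genes in Enz-R and 5 in parental kept their rank. For these values the cause was not tested, except that the filter of at least 50 counts leaves fewer genes to call. Of 691 values of 41 other named genes under the alternatives, 667 kept direction and call, 20 lost the call and 4 turned, all of KLF16. Precision is limited for KLF2, KLF1, SP5, SP8, SP9, MEF2B and MEF2C by few counts.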
